A study of Mus musculus with 4 samples.

Results

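Arg1 and Mmp12 macrophages were cells of mouse pancreatic tumors that carried RNA of Arg1, of Mmp12 or of both beside general myeloid genes. They were selected on measured RNA levels, by fixed limits, from the 2 libraries of all live cells. A barcode needed at least 500 detected genes and at most 10% mitochondrial UMIs. It then needed Arg1 and Mmp12 together at 10 or more, Tyrobp and Fcer1g together at 5 or more, and Lyz2 at 20 or more UMIs per 10000 UMIs of the cell (p10k). S100a8 and S100a9 together had to stay under 100 p10k and Krt8 and Krt18 together under 20 p10k, which kept out neutrophils and epithelial cells. Of 5360 all live cells that passed the cell filters, 1243 met these limits and are called members below. They numbered 298 of 1933 cells (15.4%, exact 95% binomial interval 13.8 to 17.1%) in tumor 1 and 945 of 3427 cells (27.6%, 26.1 to 29.1%) in tumor 2. The whole series held 8282 barcodes, of which 7984 passed the filters.

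The tumors came from KPC mice, whose genotype is KrasLSL-G12D/+; Trp53LSL-R172H/+; Pdx1-Cre, on a C57BL/6J background. The Pdx1 promoter drives Cre in the pancreatic epithelium, so the mutant alleles are recombined there and the macrophages are host cells. Each of 2 tumors gave 1 library of DAPI-negative cells (all live) and 1 library of sorted cancer-associated fibroblasts (CAFs), all by droplet sequencing of transcript 3' ends with unique molecular identifiers (UMIs). Suspensions were made by enzyme digestion at 37 °C for 45 min. No group was treated, no tumor-free pancreas was among the samples used here, and every test below is between classes of cells within the same tumors.

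Arginase 1, the product of Arg1, splits L-arginine into ornithine and urea, and in macrophages it draws down the arginine that nitric oxide synthase and nearby T cells also use. Mmp12 encodes macrophage elastase, a metalloprotease that cuts elastin and other matrix proteins. In tumors, macrophages that arise from blood monocytes can take up both programs, while tissue-resident macrophages are known by other genes, such as the hyaluronan receptor gene Lyve1 and the haemoglobin scavenger gene Cd163.

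Members were set against the remaining cells of the macrophage gate, that is, cells within every other limit but with Arg1 and Mmp12 together under 10 p10k. These numbered 167 in tumor 1 and 1149 in tumor 2. Members were thus 64.1% of the gate in tumor 1 (298 of 465, interval 59.5 to 68.5%) and 45.1% in tumor 2 (945 of 2094, 43.0 to 47.3%). The limit cut a continuous range. In tumor 1, 24 members lay at 10 to 12 p10k and 23 other gate cells at 8 to 10 p10k, and in tumor 2 these numbers were 87 and 86. The lowest members stood at 10.0 and 10.03 p10k in tumors 1 and 2, and the highest cells outside at 9.94 and 9.96 p10k. Members are the upper range of a gradient in these tumors, with no gap at its edge.

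Arg1 lies on the minus strand of chromosome 10 (chr10:24915221-24927484, GRCm38) and Mmp12 on the plus strand of chromosome 9 (chr9:7344381-7369499). Arg1 averaged 4187 and 3507 counts per 1000000 UMIs (CPM) in the summed members of tumors 1 and 2, against 364 and 209.5 CPM in the other gate cells. Mmp12 stood at 407 and 246 CPM in members, against 47.3 and 19.2 CPM in the other gate cells. These values were set by the limits and carry no test. Arg1 decided membership far more often than Mmp12: Arg1 alone reached the limit in 84.2% and 92.3% of members of tumors 1 and 2, Mmp12 alone in 5.37% and 2.54%, and both did so in 6.71% and 4.02%. Only their sum reached it in 3.69% and 1.16%. No Mmp12 UMI was found in 63.8% of members of tumor 1 and in 86.8% of those of tumor 2, whose median depth was 6861 and 3729 UMIs per cell.

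Most members held an Arg1 UMI, 99.0% in tumor 1 and 98.9% in tumor 2. In a lymphocyte gate, which should lack the gene, 12.5% of 8 cells and 0.437% of 229 cells held one, at median depths of 6092.5 and 2052 UMIs. For Mmp12 the shares were 36.2% and 13.2% of members, against 12.5% and 0% of those lymphocytes. Intervals in this account cover counting error only.

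The 3 remaining genes proposed as marks of these cells were measured outside the limits, and they did not behave alike. Atp6v0d2, which encodes a subunit of the vacuolar proton pump, stood at 74.2 and 31.5 CPM in members against 51.7 and 7.83 CPM in the other gate cells. F7, the gene of coagulation factor VII, stood at 191 and 120 CPM in members against 167 and 44.4 CPM. Both passed as higher in edgeR's quasi-likelihood test with Benjamini-Hochberg adjustment (adjusted p = 0.025 and 0.038), and DESeq2 called neither. Chil3, which encodes the chitinase-like protein Ym1, went the other way, at 10876 and 694 CPM in members against 15103 and 1224 CPM in the other gate cells. Its log2 fold change was -0.62 ± 0.07 (SE, adjusted p = 0.00015 by edgeR), so Chil3 RNA was abundant in tumor 1 but did not mark members. Near-identical copies of Chil3 exist in the mouse genome, so the split of its reads is uncertain.

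Some members met the limits used below for C1q-low monocytes, with a C1q sum under 20 p10k and Ccr2, Ly6c2 and Plac8 together at 5 p10k or more: 16 of 298 in tumor 1 (5.37%) and 238 of 945 in tumor 2 (25.2%). Of 12 core macrophage genes tested, 0 passed in either direction between members and the other gate cells by edgeR (7 had an unadjusted p under 0.05) and 0 by DESeq2, with a median log2 fold change of 0.15. Cd68 stood at 489 and 227 CPM in members and at 429 and 189 CPM in the other gate cells, and Csf1r, the receptor gene of the macrophage growth factor, at 271 and 298 CPM against 339 and 308 CPM. Genes of other leukocytes were low in members. The neutrophil list of 10 genes summed to 192 and 218 CPM in members and 275 and 406 CPM in the other gate cells, with Ly6g at 0 in members of both tumors. The T or NK list of 9 genes summed to 8.39 and 23.2 CPM in members against 34.2 and 35.6 CPM, and the dendritic list of 11 genes to 23.9 and 32.0 CPM against 34.2 and 82.1 CPM. The B or plasma list of 7 genes summed to 137 and 21.2 CPM in members against 96.5 and 445 CPM, so it was higher in members of tumor 1 and lower in those of tumor 2.

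RNA of fibroblasts and acinar cells was present in the gate. The fibroblast list summed to 77.3 and 57.2 CPM in members and to 718 and 118 CPM in the other gate cells. The acinar list summed to 13.3 and 337 CPM in members and to 12.3 and 2163 CPM in the other gate cells. Cells were also picked at 5 p10k or more of the acinar list, or of Col1a1, Col1a2, Col3a1, Dcn, Lum and Sparc together. These cells made up 0 of 298 members of tumor 1, which allows a share of up to 1.23% by the exact interval. In tumor 2 they made up 9.10% of members. They were 2.40% and 12.9% of the other gate cells. The blood endothelial list summed to 148 and 28.8 CPM in members against 123 and 34.6 CPM in the other gate cells, and the mesothelial list to 59.2 and 3.20 CPM in members against 48.2 and 6.17 CPM. The libraries of all live cells held 30950993 and 14972652 UMIs, shared 5 barcodes, and gave members 2263579 and 4058512 UMIs in all. Lowest depth differed too, at 4972 UMIs per barcode in tumor 1 and 1620 in tumor 2. Cells of at least 2000 UMIs were also thinned to 2000 UMIs, and shallower cells were left out. This kept all 1933 cells of tumor 1 and 2878 of 3427 cells of tumor 2. Members were then 67.6% of the gate in tumor 1 and 50.5% in tumor 2, where the value mixes thinning with the loss of shallow cells.

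The first comparison asked which genes outside the limits differed between members and the other gate cells, with counts summed per tumor and class and the tumor kept as a block. Of 9680 genes tested, 131 (1.35%) were higher and 151 (1.56%) lower in members, and 282 (2.91%) passed in all. The replicates were 2 tumors and the fit left 1 residual degree of freedom, so its p-values rest largely on a spread estimated across genes. A pass does not show that the tumors differed by a like amount. Plac8 passed as lower with log2 fold changes of -0.42 in tumor 1 alone and -2.33 in tumor 2 alone. DESeq2, a second count test, called 29 genes higher and 25 lower, and without the block edgeR called 0 (159 had an unadjusted p under 0.05).

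Spp1 led the genes of at least 50 CPM that were higher by edgeR. It encodes osteopontin, a secreted ligand of integrins and CD44, and lies on chromosome 5 (chr5:104435118-104441050, plus strand). Members of tumors 1 and 2 held 4416 and 4437 CPM of Spp1, against 915 and 882 CPM in the other gate cells. The log2 fold change was 2.33 ± 0.07 (SE, adjusted p = 1.05e-10 by edgeR), the tumors gave nearly the same levels, and members stood above the other gate cells in both. Spp1 was also abundant in the epithelial gate, at 3912 and 7210 CPM, and it reached 238 and 31.5 CPM in lymphocytes. Its UMIs were found in 80.9% and 75.9% of members, 62.9% and 38.8% of the other gate cells, and 75% of 8 and 7.86% of 229 lymphocytes. The part of free RNA in its level was not tested.

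Slc7a2, which encodes a cationic amino acid transporter that brings arginine into macrophages, stood at 114 and 65.0 CPM in members against 46.5 and 12.6 CPM in the other gate cells (log2 fold change 1.88 ± 0.21, adjusted p = 8.46e-05 by edgeR). It lies on chromosome 8 (chr8:40862396-40922308, plus strand). It was the only gene to pass by edgeR among 15 tested genes of arginine and polyamine metabolism. Nos2, the inducible nitric oxide synthase, reached 11.0 and 0.246 CPM in members and 3.51 and 0 CPM in the other gate cells, a difference that did not pass (adjusted p = 0.30 by edgeR). Odc1, which encodes the enzyme that turns ornithine into putrescine, stood at 85.3 and 137 CPM against 78.0 and 108 CPM and did not pass either.

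Secreted factors followed. Ccl24, the gene of eotaxin-2, stood at 512 and 258 CPM in members against 66.6 and 136 CPM in the other gate cells, so the difference was larger in tumor 1 (log2 fold change 1.77 ± 0.28, adjusted p = 0.00203 by edgeR). DESeq2 did not call Ccl24. Cxcl3, a ligand of the neutrophil receptor CXCR2, stood at 163 and 75.4 CPM against 40.3 and 29.4 CPM, and Cxcl14 at 80.4 and 95.4 CPM against 29.8 and 35.4 CPM. Vegfa, the vascular growth factor, stood at 73.8 and 209 CPM in members against 25.4 and 78.1 CPM (1.48 ± 0.13, adjusted p = 1.09e-05 by edgeR). Of 19 chemokine genes tested, 4 passed as higher by edgeR (Ccl6, Ccl24, Cxcl3 and Cxcl14) and 2 as lower (Ccl5 and Ccl8). Of 17 cytokine and growth factor genes, 4 were higher (Il1a, Vegfa, Pdgfa and Inhba) and 1 lower (Il18). DESeq2 called 2 chemokine genes higher and 1 lower, and 1 cytokine or growth factor gene higher.

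Cd9, a tetraspanin gene, stood at 1116 and 473 CPM in members against 409 and 146 CPM in the other gate cells (log2 fold change 1.60 ± 0.09, adjusted p = 2.1e-07 by edgeR). Its level was 1257 and 808 CPM in the epithelial gate and 127 and 131 CPM in lymphocytes. Slpi, a secreted inhibitor of leukocyte proteases, stood at 595 and 213 CPM in members against 168 and 111 CPM, while the 8 lymphocytes of tumor 1 held 22134 CPM and the 229 of tumor 2 held 89.2 CPM. Further genes among the 12 of highest fold change were AA467197 (921 and 933 CPM against 293 and 293 CPM), the kinase gene Sgk1 (159 and 131 CPM against 69.3 and 47.5 CPM) and the small GTPase gene Rhoc, whose log2 fold change was 1.13.

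**Figure D1:**
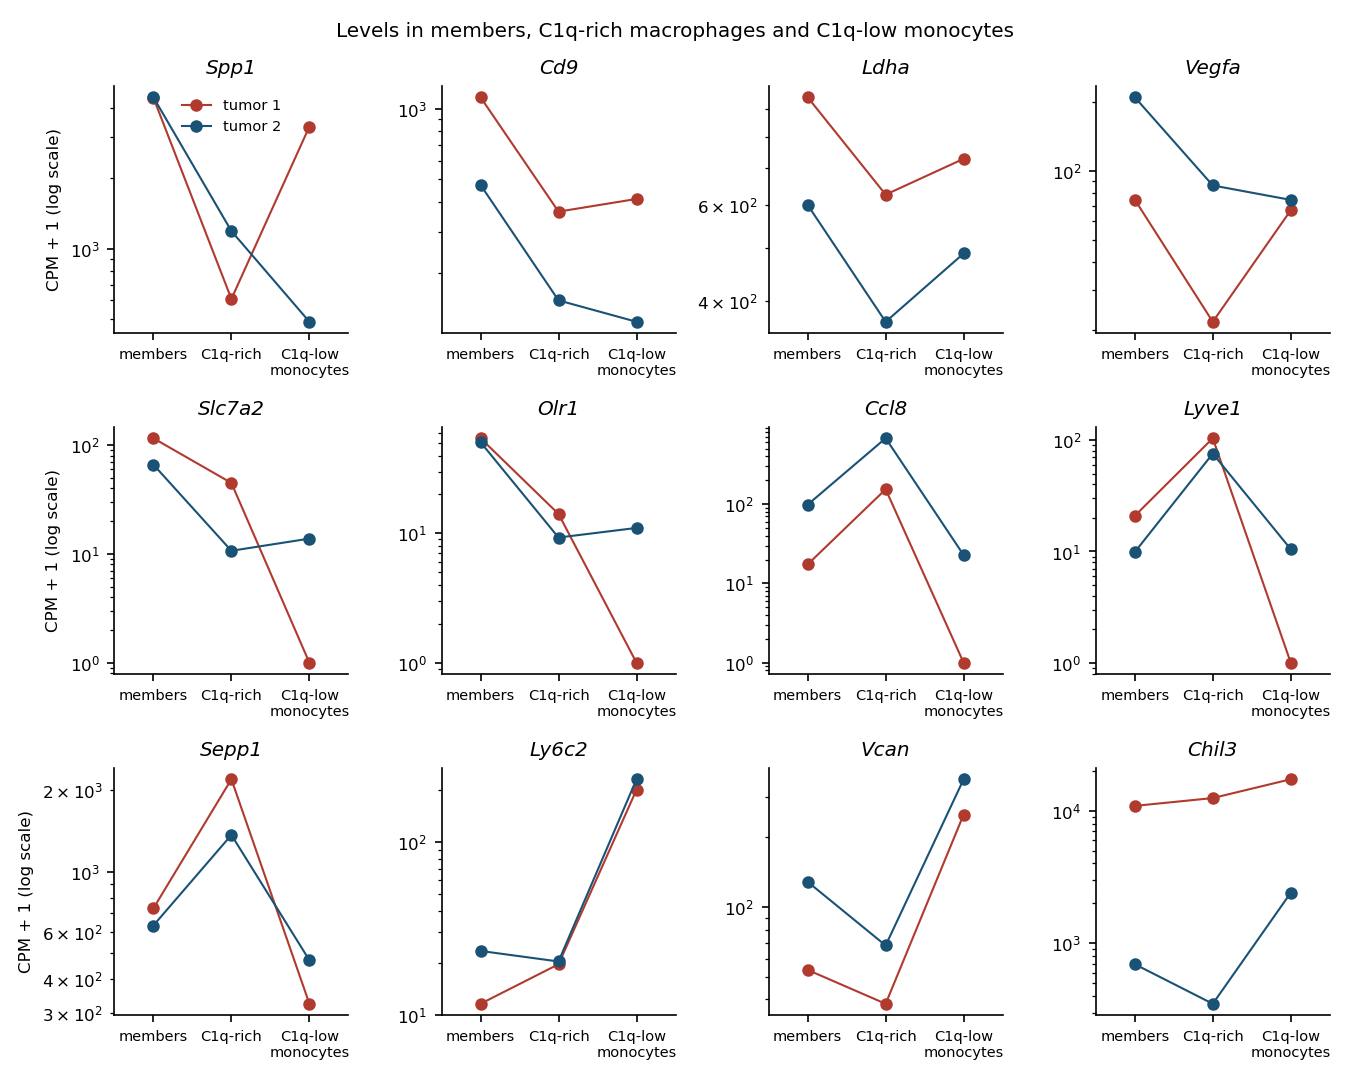
Levels of 12 genes in members, C1q-rich macrophages and C1q-low monocytes, as CPM + 1 on a log axis, with 1 point per class and tumor (summed UMIs) joined by a line for each tumor. Spp1 stands at 4416 and 4437 CPM in members and lower in both other classes, while Ccl8 stands at 16.3 and 97.1 CPM in members and at 152 and 673 CPM in C1q-rich macrophages.

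Among 25 tested genes of glycolysis and of the response to low oxygen, 13 passed as higher and 0 as lower by edgeR, with a median log2 fold change of 0.63 against -0.01 over all genes. The 13 were the glycolytic genes Ldha, Eno1, Aldoa, Gapdh, Pkm, Tpi1, Pfkl and Pgam1, the lactate exporter gene Slc16a3, and Vegfa, Bnip3, Ero1l and Mif. Ldha, which encodes the lactate dehydrogenase subunit that makes lactate, stood at 945 and 599 CPM in members against 651 and 419 CPM in the other gate cells (0.55 ± 0.08, adjusted p = 0.00096 by edgeR). Mif, a cytokine gene, stood at 861 and 819 CPM against 504 and 484 CPM, and Bnip3, a mitophagy gene, at 123 and 53.0 CPM against 60.5 and 31.1 CPM. Each of these was above its counterpart in both tumors. Slc2a1, the glucose transporter gene, stood at 73.8 and 38.9 CPM against 40.3 and 34.4 CPM and did not pass (adjusted p = 0.24 by edgeR), and Hif1a stood at 291 and 501 CPM against 247 and 400 CPM with an adjusted p of 0.092. DESeq2 called 2 of the 25 genes and not Ldha, with a median of 0.65.

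**Figure D2:**
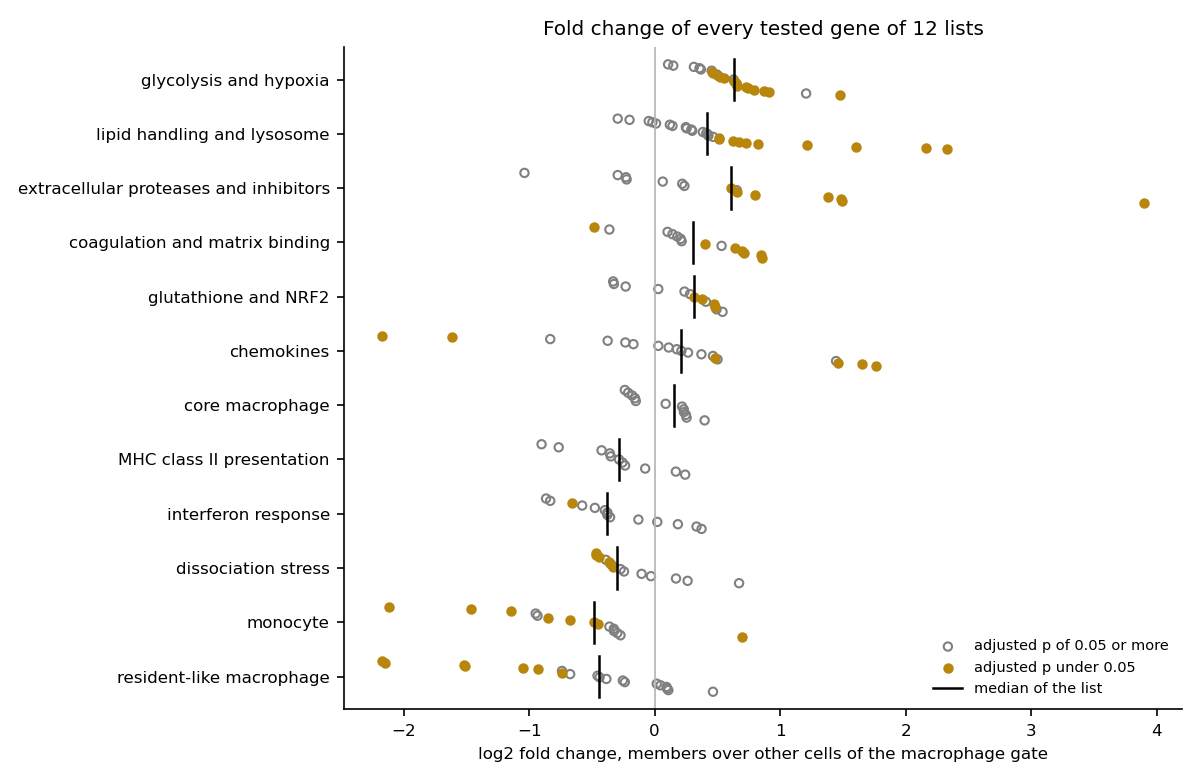
Log2 fold change (members over other cells of the macrophage gate) of every tested gene of 12 lists, filled where the adjusted p by edgeR was under 0.05, with the median of each list as a bar. Of 25 glycolysis and hypoxia genes 13 are filled, with a median of 0.63, while resident-like genes have a median of -0.45.

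The start regions of these genes were read for ACGTG, the core of the element bound by hypoxia-inducible factors, on both strands. The windows were the 250 bases before the start in RefSeq (GRCm38.p6). Of 12 matched genes among the 13 called, 7 held ACGTG (58.3%), as did 14 of 24 matched genes of the list (58.3%). Of all 27025 genes with a window, 4998 held it (18.5%), and 16.6% of 32851 windows did. Shown here are the 250 bases before the start for the 4 of them that illustrate how the letters are spaced, from Ldha (chr7:46845554-46845803, plus strand), Bnip3 (chr7:138909507-138909756, minus strand), Pgam1 (chr19:41911621-41911870, plus strand) and Slc16a3 (chr11:120948817-120949066, plus strand). Capitals mark ACGTG on either strand, and CACGTG counts as 2 overlapping matches because it reads the same on both.
Ldha: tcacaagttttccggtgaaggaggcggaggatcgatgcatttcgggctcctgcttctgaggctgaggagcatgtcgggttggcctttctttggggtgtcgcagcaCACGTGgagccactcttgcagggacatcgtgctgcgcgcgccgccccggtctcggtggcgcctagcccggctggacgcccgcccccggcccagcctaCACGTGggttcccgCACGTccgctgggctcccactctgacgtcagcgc
Bnip3: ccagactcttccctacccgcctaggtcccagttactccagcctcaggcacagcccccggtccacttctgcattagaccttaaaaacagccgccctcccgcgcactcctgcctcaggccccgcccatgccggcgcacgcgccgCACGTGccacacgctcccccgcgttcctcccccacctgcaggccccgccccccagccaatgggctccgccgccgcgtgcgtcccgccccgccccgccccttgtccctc
Pgam1: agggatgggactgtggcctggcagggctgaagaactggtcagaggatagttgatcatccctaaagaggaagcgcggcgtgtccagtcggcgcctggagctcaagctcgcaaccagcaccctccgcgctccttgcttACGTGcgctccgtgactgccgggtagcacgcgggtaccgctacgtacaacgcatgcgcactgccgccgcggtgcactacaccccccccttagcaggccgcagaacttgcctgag
Slc16a3: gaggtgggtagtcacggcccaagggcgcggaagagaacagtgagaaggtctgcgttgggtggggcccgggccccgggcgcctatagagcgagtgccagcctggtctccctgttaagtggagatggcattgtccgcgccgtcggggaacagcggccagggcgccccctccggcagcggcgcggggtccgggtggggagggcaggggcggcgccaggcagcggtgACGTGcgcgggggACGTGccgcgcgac
Ldha held 5 matches in this stretch, Bnip3 2, Pgam1 1 and Slc16a3 2. In Ldha the matches fall into 3 places, of which 2 are the palindrome and the last is the reverse strand alone. A match is a description of the letters only.

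Genes of lipid handling and the lysosome were higher in members for 10 of 26 tested and lower for 0 by edgeR, with a median log2 fold change of 0.42. These were Spp1, Fabp5, Lpl, Ctsd, Ctsl, Atp6v0d2, Cd63, Cd9, Olr1 and Msr1. Olr1, the receptor gene for oxidised low-density lipoprotein, stood at 53.5 and 49.8 CPM in members against 11.4 and 11.6 CPM in the other gate cells (2.16, adjusted p = 2.6e-05 by edgeR). Ctsl, a lysosomal cathepsin gene, stood at 1302 and 1222 CPM against 814 and 744 CPM. Trem2, the lipid receptor gene often used to name lipid-laden macrophages, stood at 319 and 411 CPM against 307 and 254 CPM and did not pass (adjusted p = 0.11), and neither did Apoe at 15738 and 9509 CPM against 20526 and 8075 CPM. DESeq2 called 4 of the 26.

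Among 15 extracellular proteases and inhibitors outside the limits, 7 were higher by edgeR and 0 lower (list median 0.61), among them Mmp13, Adam8, Serpinb2, Timp1, Cstb and Slpi. Cstb, an intracellular cathepsin inhibitor gene, stood at 1411 and 1676 CPM in members against 965 and 1024 CPM. Of 14 coagulation and matrix-binding genes, 6 were higher (F7, Thbd, Thbs1, Fn1, Tgm2 and Ecm1) and Vcan was lower. Fn1, the fibronectin gene, stood at 2029 and 2582 CPM against 1465 and 1415 CPM (0.70). Of 13 glutathione and NRF2 genes, 4 were higher (Prdx1, Txn1, Ftl1 and Fth1), and the ferritin heavy chain gene Fth1 stood at 16749 and 12429 CPM against 13543 and 8275 CPM. DESeq2 called 3 of the 15, 2 of the 14 and 0 of the 13.

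Some genes of resident-like macrophages and of monocytes were lower in members. Of 20 resident-like genes, 7 were lower by edgeR and 0 higher (median -0.45): Lyve1, Cd163, Gas6, Sepp1, Cbr2, Ccl8 and Ms4a7. Ccl8, a chemokine gene, stood at 16.3 and 97.1 CPM in members against 122 and 366 CPM in the other gate cells (log2 fold change -2.17 ± 0.17, adjusted p = 3.97e-06 by edgeR). Lyve1 stood at 19.9 and 8.87 CPM against 82.4 and 43.7 CPM, and Cd163 at 34.0 and 12.8 CPM against 93.8 and 39.9 CPM. Sepp1, which encodes selenoprotein P, stood at 730 and 631 CPM against 1848 and 939 CPM. DESeq2 called 5 of the 20 as lower. Of the 20, 14 had a negative and 6 a positive log2 fold change. The whole list of 21 genes summed to 11245 and 8195 CPM in members against 13473 and 8275 CPM, nearly level in tumor 2.

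Of 15 monocyte genes, 7 were lower by edgeR (Ly6c2, Ccr2, Plac8, Vcan, Hp, Ifitm6 and Ms4a4c) and Fn1 was higher, with a list median of -0.49. Ly6c2, the surface gene of inflammatory monocytes, stood at 10.6 and 22.4 CPM in members against 38.6 and 108 CPM in the other gate cells. Plac8 stood at 182 and 287 CPM against 245 and 1447 CPM, a far wider gap in tumor 2. The make-up of the other gate cells differed too. C1q-low monocytes were 21 of 167 of them in tumor 1 and 503 of 1149 in tumor 2. DESeq2 called 1 monocyte gene as higher and 1 as lower. The other lower genes of the named 12 were Clec4a1, Clec10a, G0s2, Fcgrt, Clec4a3, Lrg1, Pltp and Ms4a6b, at log2 fold changes of -1.49 to -0.76, of which DESeq2 did not call Pltp and Ms4a6b. DESeq2 did not call Plac8 and Ifitm6 either.

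Several further lists held few calls by edgeR. None of 11 genes of MHC class II presentation passed by edgeR or DESeq2 (4 at an unadjusted p under 0.05 by edgeR, median -0.28), with H2-Aa at 1215 and 1552 CPM in members against 1095 and 2878 CPM in the other gate cells (adjusted p = 0.36). Members with at least 2 times as many Arg1 as Mmp12 UMIs held 569 and 1436 CPM of H2-Aa. That was below the other gate cells in both tumors, a difference that was not tested. Of 12 alternative activation genes, Ccl24 was higher and Chil3, Clec10a, Cd163 and Socs3 were lower. None of 15 proliferation genes passed by either test (3 at an unadjusted p under 0.05 by edgeR). Of 14 interferon genes Ly6e was lower, and of 11 checkpoint genes Clec4a2 was lower. Of 22 myeloid receptor genes the integrin gene Itgax was higher. Among 7 genes of large peritoneal macrophages, Prg4 (46.8 and 42.4 CPM against 10.5 and 4.27 CPM) and Cd5l were higher, and among 7 osteoclast genes Acp5 and Atp6v0d2 were. Of 11 alveolar macrophage genes 2 were higher and 2 lower.

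Of 14 dissociation stress genes, 5 were lower in members by edgeR: Fos, Jund, Atf3, Zfp36 and Dusp1, while DESeq2 called 0 of them. Fos stood at 1493 and 2191 CPM in members against 2454 and 2653 CPM in the other gate cells. Of 6 fibroblast genes tested, Col1a1, Col1a2, Col3a1, Dcn and Lum were lower and Pdpn was higher, and of 5 acinar genes 4 were lower. With the cells of fibroblast or acinar RNA left out, an alternative chosen after the data were seen, 409 of 9575 genes passed (204 higher, 205 lower). With them in, 282 of 9680 had passed, so calls rose over all genes. The fibroblast list then held 1 higher and 0 lower genes of 5, and the acinar list 0 of 3. Genes of these lists picked the cells left out, so their lost calls were largely set by that choice. Glycolysis and hypoxia genes then numbered 17 higher, resident-like genes 10 lower and 1 higher, and the 24 named genes were all still called.

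**Figure D3:**
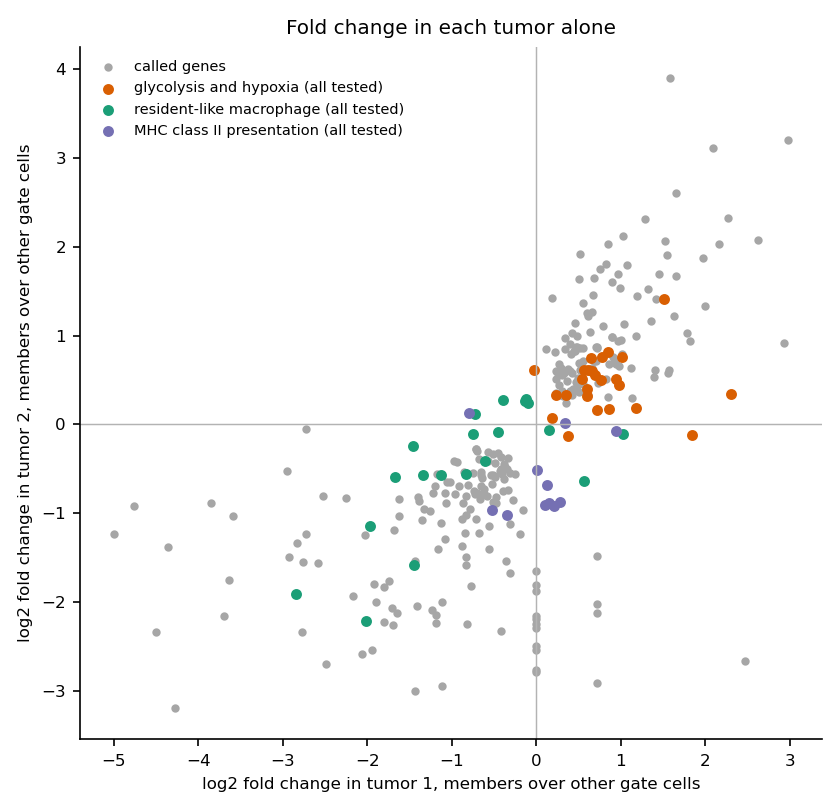
Log2 fold change (members over other cells of the macrophage gate) in tumor 2 alone (vertical axis) and in tumor 1 alone (horizontal axis), with 1 grey point per gene called by edgeR and 1 coloured point per tested gene of the glycolysis and hypoxia, resident-like macrophage and MHC class II lists. Spp1 lies at 2.27 in tumor 1 and 2.33 in tumor 2, while H2-Aa lies at 0.15 in tumor 1 and -0.89 in tumor 2.

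Levels were also read along the gradient. In 6 steps of Arg1 and Mmp12 from none to 40 p10k or more, Spp1 stood at 1315, 389, 1198, 1399, 2116 and 9550 CPM in tumor 1 and at 360, 1007, 2090, 2542, 3620 and 7231 CPM in tumor 2. The highest step was the highest in each tumor, and only tumor 2 climbed at every step. In the top step Cd9 reached 1482 and 800 CPM in tumors 1 and 2, against 302 and 92.3 CPM in cells with neither gene. Lyve1 was low there, at 11.8 and 1.52 CPM, against 83.3 and 45.7 CPM in cells with neither gene. The steps are a description with no test, since the cells were ordered by the genes of the limits.

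**Figure D4:**
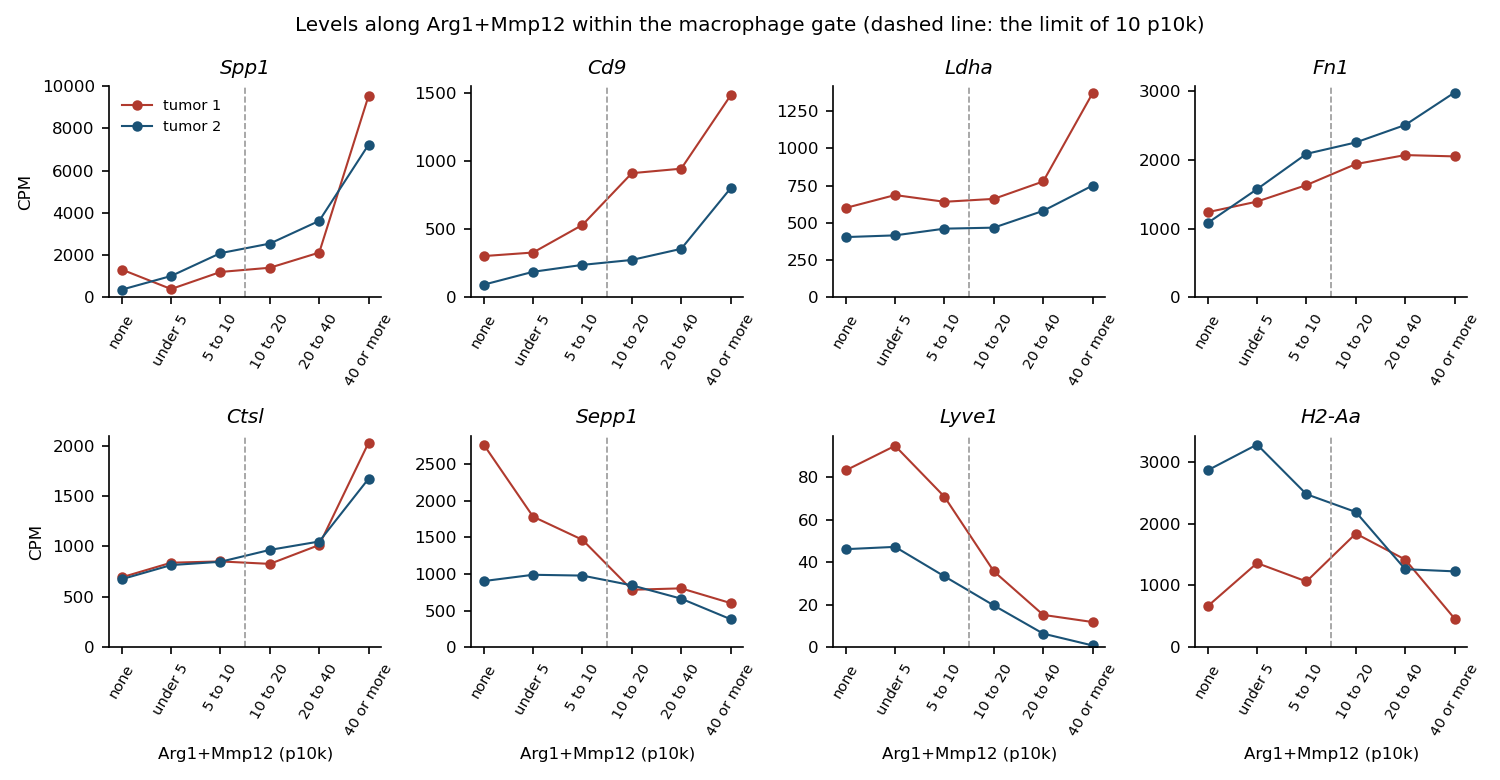
Levels (CPM of summed UMIs, linear axes from 0) of 8 genes in 6 steps of Arg1 and Mmp12 within the macrophage gate, 1 line per tumor, with a dashed line at the limit of 10 p10k. Spp1 reaches 9550 and 7231 CPM in the top step of tumors 1 and 2, and Lyve1 is lowest there at 11.8 and 1.52 CPM.

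The next comparison set members against C1q-rich macrophages, the gate cells outside the members with C1qa, C1qb and C1qc together at 20 p10k or more (131 and 579 cells). Complement C1q is made by mature tissue macrophages. Members were mostly rich in it too, in 83.6% and 65.6% of cells, against 78.4% and 50.4% of the other gate cells. Of 9190 genes, 128 (1.39%) were higher and 125 (1.36%) lower in members (253 or 2.75% in all), and DESeq2 called 28 and 30. The members' sums are the same as in the first comparison, so the calls are not independent of it.

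Of 17 resident-like genes tested, 13 were lower in members than in C1q-rich macrophages by edgeR and 0 higher (median -1.09 against 0.00 over all genes), and DESeq2 called 8 of them lower. C1q-rich macrophages were picked by C1q, while members also held C1q-low cells. Lower levels of genes that go with C1q are thus partly set by that limit, and its part in these calls was not tested. Ccl8 stood at 16.3 and 97.1 CPM in members against 152 and 673 CPM in C1q-rich macrophages (log2 fold change -2.89 ± 0.15, adjusted p = 1.74e-13 by edgeR). Lyve1 stood at 19.9 and 8.87 CPM against 103 and 74.7 CPM, Cd163 at 34.0 and 12.8 CPM against 117 and 64.5 CPM, and the folate receptor gene Folr2 at 44.2 and 52.5 CPM against 151 and 112 CPM. All of these were lower in members of both tumors. Sparc and Col3a1, matrix genes of fibroblasts, had the lowest log2 fold changes (-4.01 and -3.13). They and Igfbp4 were no longer called without the cells of fibroblast or acinar RNA. Sparc and Col3a1 were among the genes used to pick those cells, so the loss of their calls was largely set by that choice. Those cells were 0% and 9.10% of members and 3.05% and 12.8% of C1q-rich macrophages.

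Higher in members than in C1q-rich macrophages by edgeR were Slpi (595 and 213 CPM against 144 and 34.6 CPM), Spp1 (4416 and 4437 CPM against 608 and 1187 CPM) and Slc7a2 (114 and 65.0 CPM against 43.8 and 9.68 CPM). Spp1 had a log2 fold change of 2.25 ± 0.37 (adjusted p = 0.00016 by edgeR), and DESeq2 did not call Spp1 or Slc7a2 here. Fabp4, a fatty acid binding protein gene, stood at 93.7 and 66.3 CPM against 30.7 and 22.1 CPM. Of 25 glycolysis and hypoxia genes, 17 were higher and 0 lower by edgeR (median 0.78), and DESeq2 called 7. Of 13 coagulation and matrix-binding genes, 9 were higher and F13a1 was lower, and DESeq2 called 1. Apoe, the abundant lipid carrier gene, was lower in members at 15738 and 9509 CPM against 24616 and 11475 CPM (-0.44, adjusted p = 0.021 by edgeR), a call that DESeq2 did not make. Members include C1q-low cells, which held less Apoe than C1q-rich members in both tumors (values below). Chil3 stood at 10876 and 694 CPM in members against 12460 and 348 CPM, in opposite directions in the tumors, and did not pass (adjusted p = 0.83).

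A further comparison set members against C1q-low monocytes, the gate cells outside the members with C1q under 20 p10k and Ccr2, Ly6c2 and Plac8 together at 5 p10k or more. Tumor 1 gave only 21 of these cells (135953 UMIs) and tumor 2 gave 503. Of 9190 genes, 261 (2.84%) were higher and 238 (2.59%) lower in members (499 or 5.43% in all), and DESeq2 called 82 and 61. Genes of lipid handling and the lysosome made up the largest number of calls in the lists named here, with 16 of 26 higher and 0 lower by edgeR (median 1.12 against 0.02 over all genes). DESeq2 called 12 of them.

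Cd63, which encodes a lysosomal tetraspanin, stood at 1072 and 840 CPM in members against 154 and 108 CPM in C1q-low monocytes (log2 fold change 2.92 ± 0.15, adjusted p = 1.25e-13 by edgeR). Apoe stood at 15738 and 9509 CPM against 6223 and 4478 CPM, and Trem2 at 319 and 411 CPM against 199 and 163 CPM, and both passed. Spp1 stood at 4416 and 4437 CPM in members against 3325 and 485 CPM, so its gap was mostly that of tumor 2 (1.58 ± 0.39, adjusted p = 0.010 by edgeR). Slc7a2 had 65.0 CPM in members of tumor 2 against 12.8 CPM, and in tumor 1 it had 114 CPM against 0 UMIs, where the floor of 3 counts is 22.1 CPM.

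The classes were picked by C1q, Ccr2, Ly6c2 and Plac8 while members were not split by them, so a place of members between the classes on resident-like and monocyte genes is largely set by these limits. Of 17 resident-like genes tested, 12 were higher in members than in C1q-low monocytes and 0 lower by edgeR (median 1.08), and DESeq2 called 6. Pf4, the platelet factor 4 gene, which macrophages also express, stood at 1032 and 923 CPM against 51.5 and 175 CPM. Monocyte genes were lower in members for 10 of 12 and higher for Fn1 alone (median -1.39), and DESeq2 called the same numbers. Vcan, the versican gene, stood at 52.6 and 128 CPM in members against 250 and 356 CPM, and Hp, the haptoglobin gene, at 298 and 246 CPM against 816 and 777 CPM. Il1b stood at 1371 and 1971 CPM in members against 2471 and 2960 CPM (-0.66, adjusted p = 0.00028 by edgeR), and Il6 and Tnfsf9 were lower as well.

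Glycolysis and hypoxia genes passed for 2 of 25, Vegfa and Mif, with Ldha at 945 and 599 CPM in members against 728 and 488 CPM in C1q-low monocytes (adjusted p = 0.11 by edgeR). Whether this differs from the gap to C1q-rich macrophages was not tested. Of 18 chemokine genes 10 were higher and 0 lower by edgeR, and DESeq2 called 9. Neutrophil genes were lower in members for 5 of 9 (Mmp8, Cxcr2, Csf3r, G0s2 and Lcn2), and lymphocyte and acinar genes for several. RNA of those cells thus moved with this comparison too, and its part in the calls was not tested. G0s2 went opposite ways in the tumors. Its ratio of members to C1q-low monocytes was 5.83 (counting interval 1.02 to 232.5) in tumor 1 and 0.408 in tumor 2. Chil3 stood at 10876 and 694 CPM in members against 17285 and 2406 CPM and was lower (-1.30, adjusted p = 0.00088 by edgeR), and DESeq2 did not call it.

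Members also differed among themselves by which gene carried them. Cells with at least 2 times as many Mmp12 as Arg1 UMIs (Mmp12-dominant) numbered 17 and 30, those with at least 2 times as many Arg1 as Mmp12 UMIs (Arg1-dominant) 254 and 888, and 27 and 27 were neither. The 17 cells of tumor 1 were below the 20 needed for a sum, so this comparison has no test and gives values with exact counting intervals. Of 2382 genes at 50 CPM or more in either kind in both tumors, 28 (1.18%) were at least 2-fold higher and 45 (1.89%) at least 2-fold lower in Mmp12-dominant members of both tumors with intervals off 1.

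Ccl17, which encodes a ligand of the chemokine receptor CCR4 of T cells, had the highest mean log2 difference among genes higher in Mmp12-dominant members. It had 4575 and 1880 CPM in Mmp12-dominant members of tumors 1 and 2, against 59.0 and 41.0 CPM in Arg1-dominant members, which makes ratios of 77.6 (63.5 to 95.5) and 45.9 (37.4 to 56.4). Genes of class II antigen presentation were next in level: H2-Ab1 stood at 6725 and 4118 CPM against 622 and 1339 CPM, and H2-Aa at 6207 and 3462 CPM against 569 and 1436 CPM. The lectin gene Mgl2 had 269 and 470 CPM against 17.2 and 46.8 CPM. Dcstamp, a cell fusion gene of osteoclasts, had 121 and 67.1 CPM against 3.13 and 4.23 CPM, and the lipid uptake gene Cd36 had 94.0 and 291 CPM against 9.40 and 16.1 CPM. Lpl, the lipoprotein lipase gene, stood at 477 and 485 CPM against 109 and 58.7 CPM.

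Lower in Mmp12-dominant members were Spp1, at 2217 and 2134 CPM against 4650 and 4512 CPM in Arg1-dominant members, and Vegfa, at 13.4 and 44.8 CPM against 83.0 and 215 CPM. Slpi had 0 and 14.9 CPM against 698 and 226 CPM, and the acute-phase gene Saa3 had 188 and 29.8 CPM against 2807 and 1169 CPM. Chil3 stood at 3164 and 22.4 CPM against 11847 and 732 CPM. Cd93 had 0 UMIs in Mmp12-dominant members of both tumors, where the floor of 3 counts is 20.2 and 22.4 CPM, against 83.0 and 85.2 CPM. By list, 4 of 7 class II genes were higher and 0 lower, 6 of 10 coagulation and matrix-binding genes were lower and 0 higher, and 5 of 11 monocyte genes were lower and 0 higher. The dendritic cell list of 11 genes summed to 47.0 and 67.1 CPM in Mmp12-dominant members against 20.4 and 29.9 CPM. In Mmp12-dominant members the sums came from genes among Zbtb46, Cd209a and Batf3. Flt3, Xcr1, Clec9a, Ccr7, Itgae, Siglech, Fscn1 and Dpp4 were at 0 in the Mmp12-dominant members of both tumors. With 17 and 30 cells and the floors of 20.2 and 22.4 CPM, a 0 does not show that a gene is absent.

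**Figure D5:**
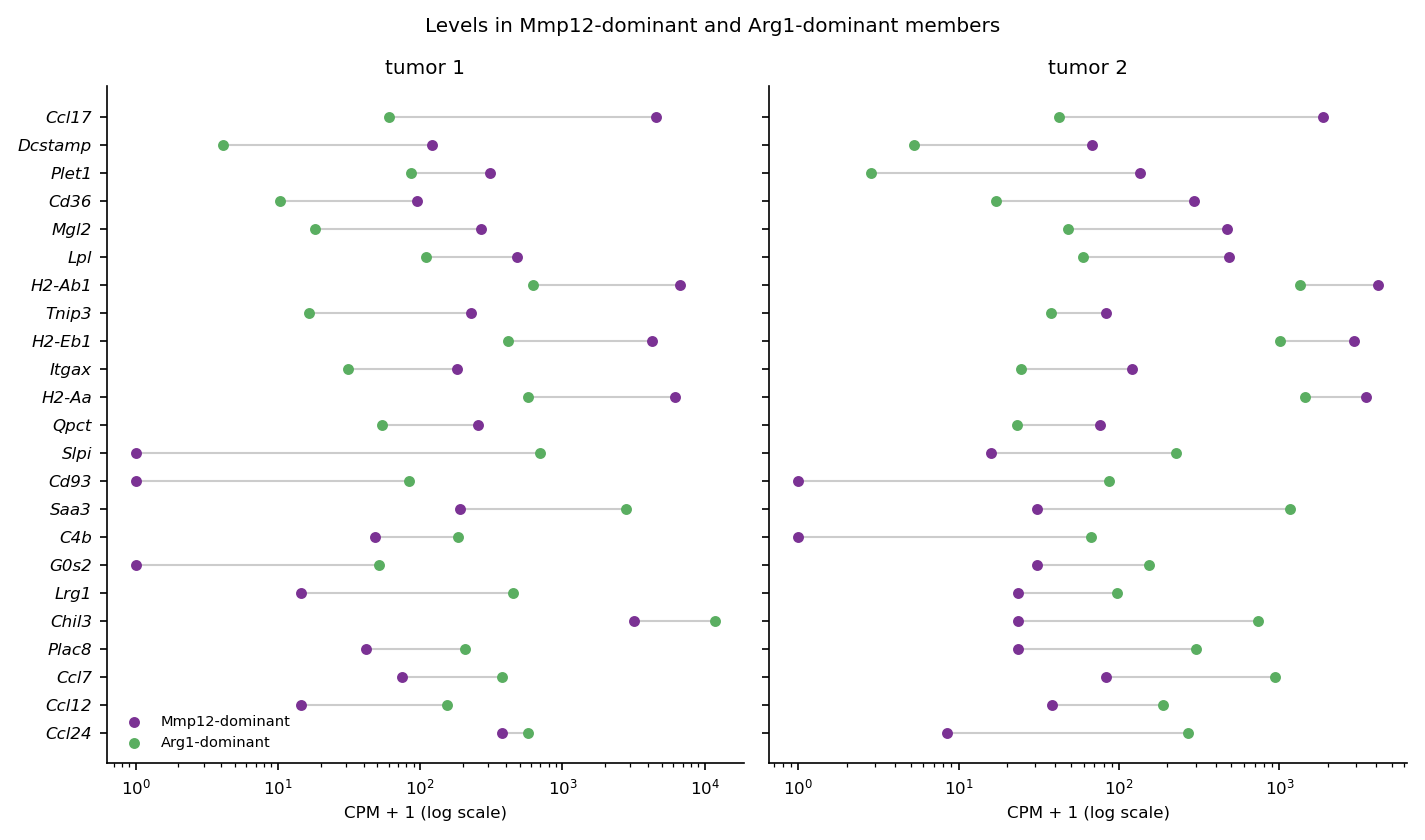
Levels (CPM + 1, log axis) of genes with large mean differences over the tumors, as points for Mmp12-dominant and Arg1-dominant members joined by a line, in tumor 1 (17 and 254 cells) and tumor 2 (30 and 888 cells). Ccl17 stands at 4575 and 1880 CPM in Mmp12-dominant members and at 59.0 and 41.0 CPM in Arg1-dominant members.

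Members also varied in C1q. In tumor 1, 249 members were C1q-rich and 49 C1q-low, and in tumor 2 these were 620 and 325. C1q-rich members held more Apoe in both tumors (17734 and 10791 CPM, against 5220 and 6579 CPM in C1q-low members) and more H2-Aa (1419 and 1810 CPM against 141 and 962 CPM). C1q-low members held more Slpi, with C1q-rich members at 338 and 173 CPM against 1947 and 304 CPM, and more Chil3, with C1q-rich members at 9672 and 462 CPM against 17218 and 1225 CPM. Spp1 was lower in C1q-rich members of tumor 1, at 3244 CPM against 10592 CPM, and at 4543 CPM against 4193 CPM in tumor 2. These values have no test.

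Between the tumors, with 1 all live library each, members are given as values only. Of 1548 genes at 100 CPM or more in the higher tumor, 8 (0.517%) were at least 4-fold higher in tumor 2 and 23 (1.49%) at least 4-fold higher in tumor 1. Retnla, the gene of the alternative activation product FIZZ1, stood at 1011 CPM in members of tumor 2 and 87.0 CPM in those of tumor 1, a ratio of 11.6 (10.1 to 13.5). Ptgs2, the inducible cyclooxygenase gene, stood at 294 CPM in tumor 2 and 71.6 CPM in tumor 1. Chil3 was lower in tumor 2, at 694 CPM against 10876 CPM, and so were Plet1 (6.90 against 120 CPM), Wfdc21 (76.4 against 713 CPM) and Gpx3 (15.5 against 136 CPM). Other gate cells showed the same order for Chil3, at 1224 CPM in tumor 2 and 15103 CPM in tumor 1, and for Retnla, at 1622 and 54.4 CPM.

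The acinar genes Prss2, Ctrb1 and Try5 and the acinar stress gene Reg3b were among those higher in members of tumor 2, and they were higher still in the other gate cells there. Ctrb1 stood at 185 CPM in members of tumor 2 and 0.442 CPM in those of tumor 1, against 1435 and 1.75 CPM in the other gate cells. Gm42418 stood at 5281 CPM in members of tumor 2 and 627 CPM in tumor 1. Spp1 was level between the tumors, at 4437 CPM in tumor 2 and 4416 CPM in tumor 1, with an interval of the ratio from 0.980 to 1.03.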

How the data were processed

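Each of 2 tumors gave 1 library of all live cells and 1 of sorted CAFs, and groups were taken from the sample labels. The authors deposited UMI counts per gene and barcode. The submitters' processing notes name the build mm10 and the tools CASAVA 1.4 and Cell Ranger 2.0.0. The deposited barcode and gene tables hold names, a unit of another kind, per the file headers. The series text counts technical replicates, which the files used here do not separate. The tables held 27998 genes.

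Members and gene lists were chosen with earlier results of these data known. Cells passed at 500 genes and 10% mitochondrial UMIs. UMIs were summed per tumor and class (at least 20 cells) and tested with edgeR 4.0.16 in R 4.3.3 (quasi-likelihood, TMM, filterByExpr, two-sided, adjusted p under 0.05 over all genes), with the tumor as a block. Both sums of a tumor come from the same library, and their deviations correlated at 0.70, 0.68 and 0.38 in the 3 comparisons. The first fit held 2 classes and the other comparisons shared a fit of 3. Genes of the limits stayed out of the tests. Folds are log2 from the fit, and CPM are unscaled. The SE of a fold was worked back from its test statistic and is not a spread between tumors. The method was tested on simulated data. DESeq2 1.42.0 was an alternative.

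Named were the 12 genes of largest fold each way among called genes at 50 CPM or more in the higher class and the same direction in both tumors, the markers, and list members by count with examples. Between tumors, 8 genes each way at 100 CPM or more were listed. Doublets were scored with scanpy 1.11.5 (scrublet). Its automatic calls were 24 and 0 of the all live cells, so an alternative left out the 30 and 98 cells of highest score, of which 1 and 15 were members. Intervals are exact at 95% (scipy 1.17.1). Gene coordinates are GRCm38, and promoter sequences come from RefSeq GRCm38.p6. Arg1 and Slc7a2 were not matched there. A further named gene is not reported here.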

Additional observations from a re-analysis of the deposited data

Results flagged for a closer look

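In the sorted CAF library of tumor 2, whose gate was meant to leave out CD45-positive cells, 9 cells met all limits for members, among 22 of 1222 cells in the macrophage gate. The sorted CAF library of tumor 1 held 0 such cells among 1402. The 9 cells held 65016 UMIs, with Mmp12 at 5491 CPM, Arg1 at 5999 CPM, Spp1 at 6844 CPM, the leukocyte gene Ptprc at 261 CPM and Col1a1 at 92.3 CPM.

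The ratio of the level in members to that in the other cells of the macrophage gate was read for genes of the lists, not for all genes. For 22 of these genes it lay above 1 in one tumor and below 1 in the other, with counting intervals off 1. For 5 of the 22 it was at least 1.5-fold off 1 each way. These differences between tumors were not tested. Gpnmb, a lysosomal membrane gene, had a ratio of 0.563 in tumor 1 and 2.36 in tumor 2. Ccl17 had 1.52 in tumor 1 and 0.515 in tumor 2, and Retnla had 1.6 and 0.624. Arg1-dominant members alone held 59.0 and 41.0 CPM of Ccl17 in tumors 1 and 2, against 280 and 234 CPM in the other gate cells. Plet1 had 1.73 in tumor 1 and 0.593 in tumor 2. Jchain, the immunoglobulin joining chain gene of plasma cells, had 10.1 in tumor 1 and 0.00194 in tumor 2.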

How the results depend on the processing

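The comparison of members with the other gate cells called 282 genes. It called 54 with DESeq2, 512 without a filter on low counts, 555 with limits of 20 and 5 p10k, and 493 with Arg1-dominant members alone. Members against C1q-rich macrophages called 253 genes, 58 with DESeq2 and 165 at no more than 5% mitochondrial UMIs. Against C1q-low monocytes the counts were 499, and 143 with DESeq2. Without the tumor as a block (no replicate block), edgeR called 0 genes in each, with 159, 140 and 410 at an unadjusted p under 0.05. The share of members in the gate was 78.1% and 56.3% in tumors 1 and 2 at a limit of 5 p10k and 45.6% and 29.8% at 20 p10k. It was 50.5% in tumor 2 with cells thinned to 2000 UMIs and shallower cells left out. Other alternatives stayed within 1.5 times of the counts. Of 291 results on single genes DESeq2 lost 157 calls. Against C1q-rich macrophages Chil3 turned to -0.12 without the block, and by tumor alone it lay at -0.20 (tumor 1) and 0.99 (tumor 2), and Fcrls at 0.26 (tumor 1) and -1.22 (tumor 2). Stab1 against C1q-low monocytes lay at -0.46 (tumor 1) and 1.55 (tumor 2). Leaving out a tumor gave values with no count of calls, limits of 20 and 5 p10k were not run for the C1q classes, whose shared fit was left with 17 C1q-low monocytes in tumor 1, and the Mmp12-dominant counts had no test. Mmp12 was absent from most members' counts. Its UMIs were in 36.2% and 13.2% of members at full depth, in tumors 1 and 2. Thinned to 2000 UMIs, they were in 27.5% and 11.4% of the 298 and 842 members that had that depth. The part of depth in its absence was not tested.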

Other observations

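Outside the members, the gate held 82 C1q-low cells without monocyte genes, 15 in tumor 1 and 67 in tumor 2. The 15 cells of tumor 1 carried some genes known from alveolar macrophages at high levels. Chil3 stood at 10876 CPM in members of that tumor against 38139 CPM in these cells, Ear2 at 404 CPM against 1089 CPM, and Car4 at 50.4 CPM against 882 CPM. In tumor 2, Chil3 stood at 694 CPM in members against 336 CPM in the 67 cells, Ear2 at 199 CPM against 459 CPM, and Car4 at 2.96 CPM against 7.99 CPM. Atp6v0d2 and F7, proposed as marks of members, were also lower in members than in the 15 cells of tumor 1. Atp6v0d2 stood there at 74.2 CPM in members against 217.8 CPM, and F7 at 191 CPM against 239.6 CPM. In tumor 2 both were higher in members than in the 67 cells. Atp6v0d2 stood at 31.5 CPM against 19.97 CPM, and F7 at 120 CPM against 67.9 CPM. Siglecf, a surface gene of alveolar macrophages, had 0 UMIs in the 15 cells of tumor 1, where the floor of 3 counts is 32.7 CPM. Ear1, Krt79 and Fabp1 had 0 UMIs there too, which made 4 of the 14 genes of the alveolar macrophage list. These values have no test, and the 15 cells are 1 sum from 1 tumor.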
